A study of Mus musculus with 4 samples.

Results

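Short introns that appear as deletions in lists of RNA variants were examined in 2 mouse cancer cell lines. MBT2 is a bladder cancer line whose titles carry the number 63, and LM8 is an osteosarcoma line. Both are syngeneic with C3H/HeN mice, and neither received a treatment. The culture medium was RPMI-1640 for MBT2, while LM8 grew in MEM to which HEPES had been added at 24 mM. Both media held 10% serum. The descriptions also carry a different code for each line, whose meaning is not given. Line, medium and whatever the codes stand for cannot be told apart. A list of variants called from poly(A) RNA was deposited for each line, with read counts for 2 libraries per line. The duplicates of a line carry the same text in their descriptions and may share a culture, and the spread between them may be technical. The p-values below come from reads summed over a line's libraries, so they cover the counting error of reads only. The examined sites are deletions of 21 or more bases with the same position and the same bases in both lists. There were 745 of them, 59.1% of the 1261 variants listed in both lines, 36.8% of the 2023 long deletions listed for MBT2 and 45.6% of the 1633 listed for LM8. All distinct variants of the lists numbered 10545. The members were thus chosen by the measured variant calls, since a site had to be called from the reads of each line. Their presence and the level of their shares are a description and are not tested.

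Most mammalian introns begin with GT and end with AG, and the spliceosome joins the flanking exons when it removes them. A read of spliced RNA aligned across a short intron can be written as a deletion of the intron's bases. In such a record the alternative allele is the spliced form, and the reference allele is a read that still holds the bases. An intron that stays in poly(A) RNA often carries a stop codon, and such transcripts can be held in the nucleus or degraded. The measure used here is the reference-read share, the percentage of reference reads among reference plus alternative reads at a site. Where a second deletion covers the same bases, reads of that other form can count as reference reads too, and the share is then no measure of retention. This held for 55 of the 745 members, and it is named below beside Srsf5, Nfkb2, Cryab, Acin1, Araf and Recql4.

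The deleted bases of 12 members are printed because they carry the results on single sites. Each is written 5′ to 3′ on the strand of its intron ends, with the first 6 and the last 3 bases in capitals, the parts next to the exons. The first 4 are introns kept more often in MBT2. Srsf5 and Nfkb2 are the shorter forms of introns with acceptors that lie 3 bases apart. The next 4 are introns kept more often in LM8. Slc6a8 had reference reads almost throughout, and Nop2 is the member with AT-AC ends.
Yipf2: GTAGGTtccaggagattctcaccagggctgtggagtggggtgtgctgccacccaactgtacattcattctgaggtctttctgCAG
Phrf1: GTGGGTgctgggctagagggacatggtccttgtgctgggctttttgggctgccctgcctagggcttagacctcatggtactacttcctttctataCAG
Taf6l: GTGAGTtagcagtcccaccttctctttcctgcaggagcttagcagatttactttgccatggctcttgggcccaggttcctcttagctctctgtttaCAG
P3h4: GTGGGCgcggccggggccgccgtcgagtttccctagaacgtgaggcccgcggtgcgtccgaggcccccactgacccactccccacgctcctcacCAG
Srsf5: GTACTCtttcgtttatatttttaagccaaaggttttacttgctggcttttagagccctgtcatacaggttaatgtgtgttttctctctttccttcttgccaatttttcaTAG
Nfkb2: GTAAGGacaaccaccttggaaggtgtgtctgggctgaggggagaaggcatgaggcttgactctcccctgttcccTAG
Hnrnpa2b1: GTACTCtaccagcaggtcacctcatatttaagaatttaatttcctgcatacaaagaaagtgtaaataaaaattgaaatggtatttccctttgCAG
Gadd45g: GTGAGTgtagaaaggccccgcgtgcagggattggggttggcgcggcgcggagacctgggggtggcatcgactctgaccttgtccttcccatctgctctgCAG
Sgk1: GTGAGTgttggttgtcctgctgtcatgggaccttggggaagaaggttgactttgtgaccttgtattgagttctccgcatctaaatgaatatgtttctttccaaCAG
Pim1: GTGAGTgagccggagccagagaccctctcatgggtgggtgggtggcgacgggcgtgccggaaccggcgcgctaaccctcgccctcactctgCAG
Slc6a8: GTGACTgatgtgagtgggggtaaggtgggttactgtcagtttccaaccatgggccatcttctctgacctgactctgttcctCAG
Nop2: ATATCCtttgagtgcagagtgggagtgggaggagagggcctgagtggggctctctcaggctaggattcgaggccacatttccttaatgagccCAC

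In GRCm39 these introns lie at chr9:21501057-21501141 (Yipf2, minus strand), chr7:140841028-140841125 (Phrf1, plus), chr19:8752655-8752753 (Taf6l, minus) and chr11:100304906-100305002 (P3h4, minus). Srsf5 lies at chr12:80996379-80996490 (plus), Nfkb2 at chr19:46300132-46300208 (plus), Hnrnpa2b1 at chr6:51444276-51444370 (minus) and Gadd45g at chr13:52001490-52001591 (plus). Sgk1 lies at chr10:21873953-21874058 (plus), Pim1 at chr17:29710545-29710638 (plus), Slc6a8 at chrX:72723654-72723737 (plus) and Nop2 at chr6:125114179-125114273 (plus). All but the Nfkb2 form are annotated introns between coding exons. The Nfkb2 form begins at the start of an annotated coding intron of that gene and ends 3 bases before its end. It is listed under the neighbouring gene Psd.

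Most members were annotated introns. The deleted bases were those of an annotated intron for 669 members (89.8%), of which 529 lay in the gene named in the lists and 140 in another gene nearby, and 22 matched more than 1 gene. A further 68 had intron ends without a matching annotation, and 8 had none. For these 68 the ends were sought at shifts of up to 12 bases on either strand. The bases beyond the deletion were not read, so some of these ends may not be real. GT-AG ends were found for 726 members, GC-AG ends for 10 and AT-AC ends for 1. For every annotated intron (669 of 669) the strand of the intron ends was the strand of the reads with the deletion, and the same held for 66 of the 68 with intron ends only. Of the annotated introns, 624 lay between coding exons, 19 in a 5′ UTR, 11 in a 3′ UTR and 15 in non-coding transcripts. The lists give 449 members a HIGH predicted impact on the protein, and 403 of these (89.8%) were annotated introns. Splice acceptor loss was listed for 237 members, of which 220 were annotated introns, and a frameshift for 195, of which 174 were.

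The deletions were short for introns. Their median length was 91 bases (quartiles 80 and 106), and their median GC content was 57.3% (quartiles 51.5% and 62.2%). The longest, of 225 bases, is an annotated intron of Fgfr1op, a centrosomal protein gene, with reference-read shares of 20.7% and 6.25% in the MBT2 libraries and 13.2% and 5.56% in those of LM8. The shortest, of 21 bases in the developmental transcription factor gene Pax6, had GT-AG ends without an annotation, and shares of 8.33% and 22.9% in MBT2 and 14% and 14.5% in LM8. No other shared deletion came close to the limit from below. The longest shared deletions under it were 3 bases long, in Tcea1-ps1 (64.8% and 80.5% in MBT2, 75.9% and 75.9% in LM8) and Tmem8b (96.0% and 82.6%, 97.4% and 79.3%). None of the 6 members shorter than 65 bases was an annotated intron.

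Reference-read shares fell into separate low and high ranges in both lines. In MBT2 the median share was 15.3%, and 15.8% and 16.2% in the single libraries. In LM8 it was 12.4%, and 12.5% and 13.6% in the libraries. The members held 93025 to 107546 reads per library, with medians of 82 to 91 reads per member. Of the members, 608 were mostly removed, with a share under 50% in both lines, 134 were mostly kept, with a share over 50% in both, and 3 changed side. Just below 50%, the highest shares were 34.2% in MBT2 and 32.9% in LM8, and just above it the lowest were 59.7% and 63.2%. No member thus had a share between these bounds in either line. The lists had been filtered without a matched normal, and whether the filter removed sites in this range was not tested. The reads with an orientation tag, a part of all reads, gave lower medians of 9.87% in MBT2 and 8.14% in LM8, and counting fragments gave higher ones of 18.2% and 14.6%. The level of a share thus depends on which reads are counted, while MBT2 had the higher median under each count.

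**Figure D1:**
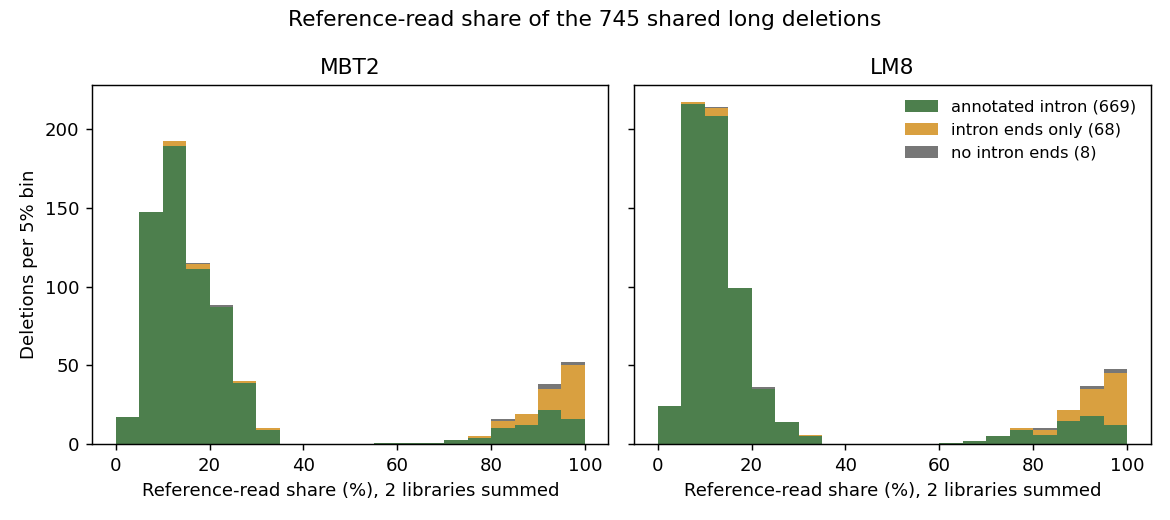
Reference-read shares (x axis, percent, 2 libraries summed) of the 745 members in MBT2 (left) and LM8 (right), as stacked counts per 5% bin (y axis) for annotated introns, deletions with intron ends only and deletions without intron ends. In each line the members form a low group and a high group, no LM8 member lies between 40% and 60%, and deletions without a matching annotation lie mostly in the high group.

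Introns that were mostly removed were almost all annotated. Annotated introns made up 98.5% of the 608, and 587 of them lay between coding exons. Their median share was 13.4% in MBT2 (13.9% and 13.6% in the libraries) and 11.03% in LM8 (11.1% and 11.6%). Among reference reads with an orientation tag at these sites, 5.98% of 9613 in MBT2 and 5.52% of 7279 in LM8 ran against the strand of the spliced reads. Among alternative reads with a tag, 9 of 86954 and 16 of 81592 did. A small part of the reference reads at mostly removed introns was thus on the other strand, and their source was not tested. Across these 608 introns the shares of the lines had a Spearman correlation of 0.54, given as a description of sites that share libraries and aligner. Length, GC content, the pyrimidine content of the 20 bases before the acceptor and the match of the donor to 9 consensus positions each had a Spearman correlation between -0.07 and 0.09 with the share in either line. The number of reads at the site had a Spearman correlation of 0.44 with the share in MBT2 and 0.46 in LM8, each within the line, and reads of both alleles enter both measures.

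Introns that were mostly kept were a different set of sites. Only 68 of the 134 (50.7%) were annotated introns, 60 had intron ends without an annotation and 6 had no intron ends. Their median share was 93.4% in MBT2 and 93.1% in LM8, so the deletion was the minor form. Their bases lay inside an exon of an annotated transcript for 86 members (64.2%), against 289 (47.5%) of those mostly removed. They had more reads, with medians of 329 in MBT2 and 278.5 in LM8 against 161.5 and 152. Each site had to be called from its deletion reads in both lines, and the part of this choice in the depth was not tested. In 23 of the 134 the bases overlapped another long deletion of either list, against 30 of the 608. A member of this kind is Slc6a8, the creatine transporter gene, with shares of 99.4% and 98.5% in MBT2 and 97.7% and 99.3% in LM8. The Slc6a8 intron is annotated in 1 transcript, and its bases lie in no annotated exon. Whether spliced reads with other ends, absent from the lists, count among its reference reads was not tested, so its share is not taken as retention. Apc2, a relative of the tumour suppressor Apc, had the highest mean share, with 99.3% and 99.7% in MBT2 and 99.8% and 99.5% in LM8, for a deletion of 102 bases without an annotation. Prelid3b, a mitochondrial lipid transfer protein gene, held a deletion of 214 bases with 98.4% and 98.4% against 99.1% and 98.5%, over 3361 and 3528 reads. None of these 3 differed past the threshold.

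The reading frame differed between kept and removed coding introns. Keeping the bases would place a stop codon in frame for 432 of the 624 coding introns. It would shift the frame without a stop within the kept bases for 137, and leave the frame open for 55. Bases beyond the end of the intron were not searched for stop codons. Of the 35 mostly kept coding introns 13 left the frame open, against 42 of the 587 mostly removed. For 12 of the 13 the bases lay in an exon of an annotated transcript, and for 11 in that of a protein-coding one. These 13 had shares of 68.7% to 96.5% in MBT2 and 63.2% to 96.1% in LM8. At such sites the deletion takes out an in-frame stretch in a minority of reads, as in Hnrnpm, an RNA-binding splicing protein gene, with 96.2% and 96.2% in MBT2 and 96.7% and 95.5% in LM8. The difference in frame between the groups is a description and was not tested.

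The lines were then compared site by site. Fisher's exact test (two-sided) was run on the summed reads of every variant listed in both lines, with Benjamini-Hochberg adjustment over the 1261 variants and a threshold of 0.05. It called 77 of the 745 members (10.3%), against 92 of all 1261 variants (7.3%). Of the members, 65 had the higher reference-read share in MBT2 and 12 in LM8, and over all variants these calls were 5.39% and 1.9%. The remaining 516 shared variants gave 15 calls. Duplicate libraries gave a measure of spread: between the libraries of a line the same test called 0 of the 6361 MBT2 variants (0%) and 0 of the 5445 LM8 variants (0%), and 42 and 43 members had an unadjusted p under 0.05. At all 77 called members both libraries of one line lay beyond both of the other. Over all members, called or not, this separation was seen at 333 (44.7%), 245 with MBT2 and 88 with LM8 above, against 37.8%, 24.7% and 13.1% of all shared variants.

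The called members leaned towards MBT2, and so did the members that were not called. MBT2 had the higher share at 468 members, LM8 at 275, and 2 were equal. The median difference, MBT2 minus LM8, was 1.54 percentage points over the members and 0.43 over all 1261 variants. The median difference between the duplicates of a line was 3.19 points in MBT2 and 3.33 in LM8, without regard to sign. It compares single libraries, which hold fewer reads than the sums compared between the lines. Among mostly removed introns 399 were higher in MBT2 and 207 in LM8, with 48 and 7 calls. Mostly kept members split evenly, 67 and 67, with 15 and 4 calls. Calls were rare where reads were few. The 187 members with the fewest reads, 22 to 93 in the line with fewer, gave 1 call, and the 186 with the most, 231 to 3361, gave 43. A difference of the size called at deep sites was thus not detectable at many others.

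With the orientation-tagged reads alone, a count chosen after the data were seen, the test called 31 members, 26 higher in MBT2 and 5 in LM8. Of these, 27 were among the 77. Leaving out a library gave 44 to 64 calls, with 37 to 55 higher in MBT2. The number was 44 without the first LM8 library and 51 without the first MBT2 library. No other alternative moved the number of calls by over 1.5 times.

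**Figure D2:**
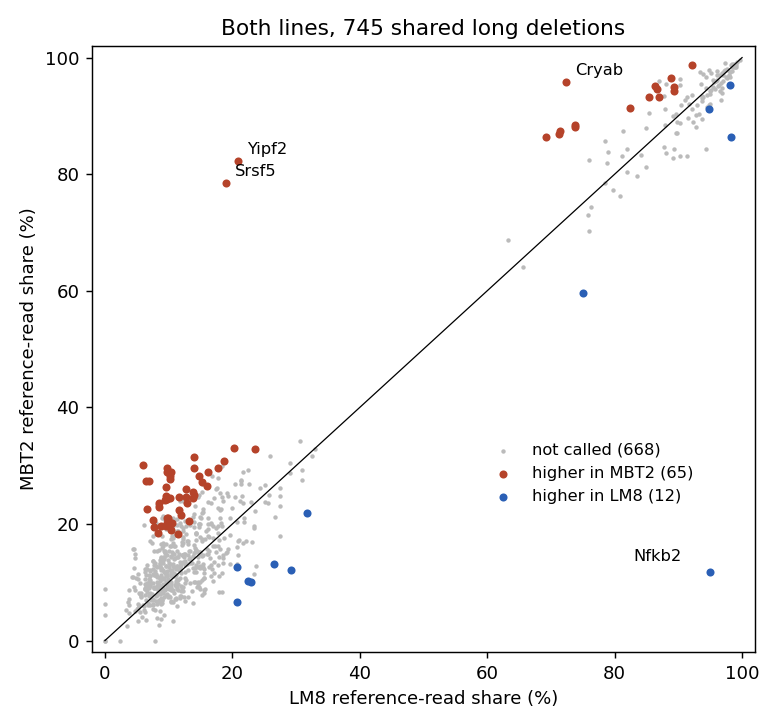
Reference-read share of each of the 745 members in LM8 (x axis, percent) and MBT2 (y axis, percent), 2 libraries summed per line, with the diagonal of equal shares. Red points are the 65 members called higher in MBT2 and blue points the 12 called higher in LM8. Yipf2, Srsf5 and Nfkb2 lie far from the diagonal, and most red points lie above the low group.

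Yipf2 had the largest difference in favour of MBT2. It encodes a membrane protein of the Golgi, and the member is its intron of 85 bases. The share was 84.6% and 80% in the MBT2 libraries and 14.04% and 28.3% in those of LM8, so the groups did not overlap. The members with the largest differences were chosen with this separation as a condition. Over 107 and 110 reads the summed shares were 82.2% (exact binomial 95% interval 73.7 to 88.96, counting error only, as for all intervals below) and 20.9% (13.7 to 29.7). The difference was 61.3 points (Fisher's exact test, adjusted p = 4.17e-18), and the call held in all 8 alternatives run for single members. Other introns of the gene were listed for MBT2 and not for LM8. One of 82 bases had shares of 80.8% and 78.6% over 108 reads, and one of 76 bases in the 3′ UTR of a transcript had 88.0% and 92.5% over 117 reads. In MBT2 these 3 introns of Yipf2 were thus kept in most reads. Keeping the 85 bases would shift the frame and bring in a stop codon.

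Srsf5 and Nfkb2 differed in the choice between acceptors 3 bases apart, as the lists record it. Srsf5 encodes a serine and arginine rich splicing factor, and Nfkb2 encodes a subunit of the transcription factor NF-κB. In each the shorter deletion ended in TAG and a longer one in the further bases CAG. For the Srsf5 form of 112 bases the share was 78.1% and 78.6% in MBT2 and 23.4% and 14.9% in LM8, over 880 and 431 reads (difference 59.4 points, Fisher's exact test, adjusted p = 3.79e-94). The form of 115 bases, also a member, had 29.8% and 28.8% in MBT2 and 29.6% and 32.3% in LM8 and was not called. In LM8 the shorter form had 349 alternative and 82 reference reads, while 509 reads over the same bases were counted for the longer form. In MBT2 the shorter form had 190 alternative and 690 reference reads beside 626 of the longer form. Reads of the longer form were thus not all counted as reference reads of the shorter one in LM8, and the part of this in the difference was not tested. With the orientation-tagged reads alone the shorter form had 18.4% in MBT2 and 7.14% in LM8 (adjusted p = 0.063, Fisher's exact test), so the call was lost.

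In Nfkb2 the form of 77 bases had shares of 8.70% and 16.7% in MBT2, over 76 reads, and 97.1% and 92.8% in LM8, over 137 reads. This was the largest difference towards LM8, 83.0 points (LM8 higher, Fisher's exact test, adjusted p = 2.93e-34). The annotated form of 80 bases was listed for LM8 alone, where 116 of 131 reads had it (shares 13.4% and 9.38%). The spliced reads were thus recorded at the first acceptor in MBT2 and mostly at the second in LM8, and the reference-read share of the leading form was 11.8% in MBT2 and 11.5% in LM8. The tagged reads gave 14.7% and 37.5% for the shorter form (adjusted p = 0.87, Fisher's exact test), so this call was lost too.

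Phrf1, Taf6l, Nup85 and Med24 were among the 10 called members with the largest differences towards MBT2, each at a mostly removed intron. The Phrf1 intron of 98 bases, in a gene for a protein with PHD and RING fingers, had shares of 32.0% and 28.5% in MBT2 and 3.57% and 8.20% in LM8. The summed shares were 30.04% (24.1 to 36.5) over 223 reads and 5.98% (2.44 to 11.9) over 117 (difference 24.1 points, Fisher's exact test, adjusted p = 4.22e-06), and the call held in all 8 alternatives. Taf6l, a subunit gene of a histone acetyltransferase complex, had 27.3% and 27.5% against 9.33% and 4.35% (20.4 points, adjusted p = 2.02e-05, exact test). Nup85, a nuclear pore subunit gene, had 31.0% and 27.6% against 16.7% and 3.64% (18.6 points, adjusted p = 0.00279, exact test). Med24, a subunit gene of the Mediator complex, had 32.2% and 24.5% against 16.05% and 5.32% (17.9 points, adjusted p = 6.10e-04, exact test). The libraries of the lines did not overlap at any of the 4, which was a condition of their choice. Tagged reads alone lost the calls of Taf6l, Nup85 and Med24. Nup85 and Med24 also lost theirs without the second LM8 library (replicate 2), and Med24 without the first MBT2 library.

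P3h4, Rmnd5b, Ogfod2 and Cryab complete the 10 called members with the largest differences towards MBT2. P3h4, of the prolyl hydroxylase family that acts on collagen, had 29.2% and 29.9% in MBT2 and 8.30% and 11.25% in LM8, over 291 and 481 reads. Its difference of 19.8 points (Fisher's exact test, adjusted p = 4.26e-10) held in all 8 alternatives. Rmnd5b, a ubiquitin ligase subunit gene, had 34.6% and 20.9% against 7.55% and 5.56% (20.9 points, adjusted p = 9.04e-05, exact test). Ogfod2, of the oxygenase family and listed under Arl6ip4, had 30.8% and 26.9% against 7.69% and 12% (19.03 points, adjusted p = 0.00234, exact test). Tagged reads alone lost the calls of Rmnd5b and Ogfod2, as did leaving out the first MBT2 library for Rmnd5b, and leaving out the first LM8 library or counting fragments for Ogfod2. The first intron of Cryab, a small heat shock protein gene, lies in a 5′ UTR and was mostly kept, with 98.3% and 93.4% in MBT2 and 75.6% and 69.1% in LM8. Its difference was 23.4 points (adjusted p = 2.08e-09, exact test), lost with tagged reads alone. It is listed under Hspb2. A further deletion of 101 bases over the Cryab intron had 4 alternative reads in MBT2.

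**Figure D3:**
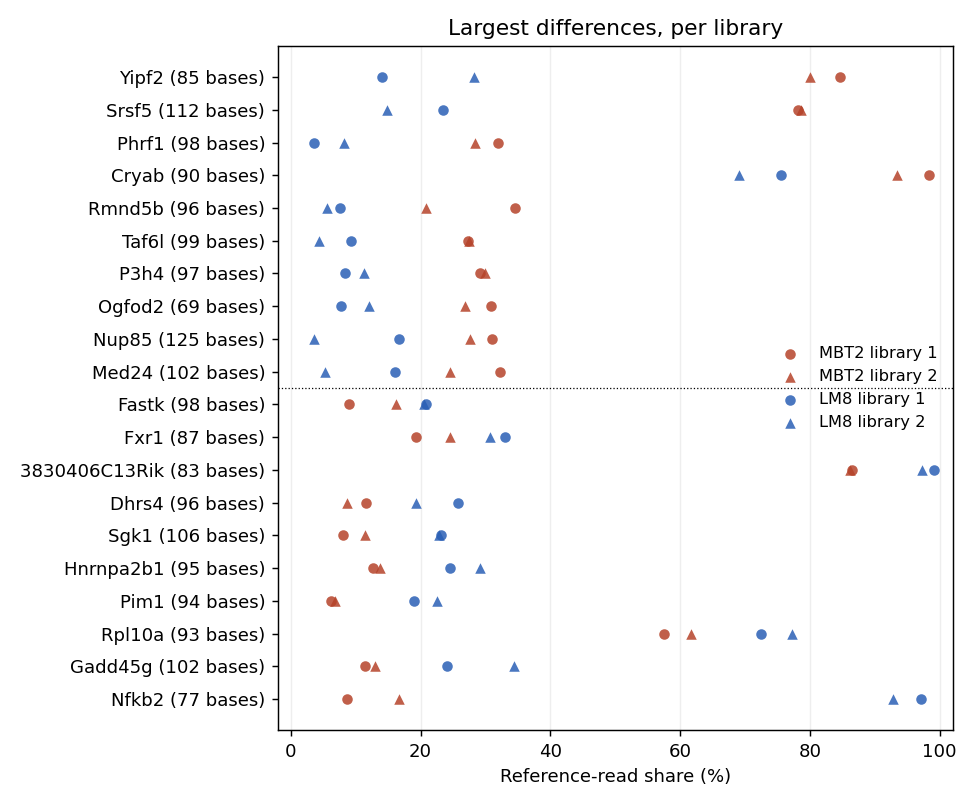
Reference-read share (x axis, percent) in each library for the 20 called members with the largest differences, 10 in each direction (y axis, gene and deletion length, Nfkb2 being the form listed under Psd). Circles and triangles are the first and second library, red for MBT2 and blue for LM8, and the dotted line divides members higher in MBT2 (above) from those higher in LM8. In each row both red points lie on one side of both blue points, which was a condition for the choice of these members.

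Of the 12 members called higher in LM8, most were mostly removed introns in both lines, 7 in all. The Gadd45g intron, in a stress-induced gene, had 11.5% and 13.0% in MBT2 and 24.1% and 34.3% in LM8 (-17.04 points, adjusted p = 0.00512, exact test). Pim1, a serine/threonine kinase gene, had 6.25% and 6.82% against 18.9% and 22.5% (-14.20 points, adjusted p = 0.00279, exact test). Sgk1, a kinase gene induced by serum and glucocorticoids, had 8.11% and 11.4% against 23.1% and 22.8% (-12.94 points, adjusted p = 0.00657, exact test). The libraries of the lines did not overlap at these 3, again a condition of their choice. Tagged reads alone ended all 3 calls. So did leaving out either MBT2 library or the second LM8 library for Gadd45g, the second library of either line or counting fragments for Pim1, and the first MBT2 library or either LM8 library for Sgk1. The media differed between the lines, and their part in these differences was not tested.

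Hnrnpa2b1, which encodes a nuclear ribonucleoprotein that binds splice sites and other RNA, had shares of 12.6% and 13.8% in MBT2 and 24.6% and 29.1% in LM8. The summed shares were 13.2% (10.3 to 16.5) over 485 reads and 26.6% (22.5 to 31.0) over 440, a difference of -13.39 points (Fisher's exact test, adjusted p = 1.86e-05) that held in all 8 alternatives. Fxr1, a relative of the fragile X protein gene and listed under Dnajc19, had 19.3% and 24.5% against 33.0% and 30.6% (-9.90 points, adjusted p = 0.00148, exact test), lost without the first library of either line. Dhrs4, a carbonyl reductase gene listed under Carmil3, had 11.6% and 8.64% against 25.8% and 19.2% (-12.21 points, adjusted p = 0.0298, exact test), and lost its call without either MBT2 library, without the first LM8 library, with fragments and with tagged reads alone. The transcript 3830406C13Rik held a deletion of 83 bases with intron ends only, at 86.5% and 86.2% against 99.1% and 97.2% (-11.83 points, adjusted p = 6.64e-09, exact test), lost with fragments.

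Fastk, which encodes an RNA-binding protein of mitochondria, changed in opposite directions at different introns. Its annotated intron of 98 bases had 9.04% and 16.2% in MBT2 and 20.9% and 20.6% in LM8 (-8.12 points, adjusted p = 0.00111, exact test), lost without the first MBT2 library and with tagged reads alone. A deletion of 84 bases elsewhere in the gene, named after its values were seen, had 98.3% and 99.2% in MBT2 and 91.6% and 92.7% in LM8 and was called the other way. The 77 called members lay in 73 genes, and Fastk, Aup1, Hirip3 and Ptov1 had more than 1, the last 3 also named after their values were seen. In Aup1, a lipid droplet protein gene, introns of 99 and 107 bases had summed shares of 31.5% and 23.6% in MBT2. The MBT2 libraries had 33.1% and 30.0% at the intron of 99 bases. At the intron of 107 bases they lay apart, at 15.9% and 30.2%. In LM8 the intron of 99 bases had 13.5% and 14.5% in its libraries and the intron of 107 bases 11.5% and 14.5%. Both introns of Hirip3, a histone chaperone gene, were higher in MBT2 as well, at 22.7% and 25.6% against 10.5% and 8.20%, and at 24.2% and 18.2% against 8.60% and 11.6%. The members of Ptov1 were an intron of 77 bases with 24.6% and 24.6% against 9.84% and 13.5%, and a 3′ UTR intron of 184 bases with 96.4% and 93.7% against 89.4% and 89.1%. Single libraries decided 3 of these 6 calls: that of the Aup1 intron of 107 bases was lost without the second MBT2 or the first LM8 library, that of the Hirip3 intron of 69 bases without the first library of either line, and that of the Ptov1 intron of 184 bases without the first MBT2 library. The call of the Hirip3 intron of 77 bases was lost with tagged reads alone.

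Of the 13 mostly kept coding introns that leave the frame open, 5 were called, each with the higher share in MBT2 and named after their values were seen. Over all mostly kept members 14.2% were called, and over all shared variants 7.3%. The count among so few sites was not tested. Med12, a Mediator subunit gene, had 86.6% and 89.8% in MBT2 and 70.5% and 77.4% in LM8. S100pbp, which encodes a protein that binds S100 proteins, had 89.7% and 86.5% against 75.8% and 72.0%. Zswim8, a ubiquitin ligase adaptor gene, had 92.0% and 90.6% against 80.99% and 83.6%. Chst14, a sulfotransferase gene of dermatan sulfate synthesis, had 97.2% and 95.8% against 85.9% and 91.7%, and Retreg2, of the reticulophagy regulators, 94.0% and 94.7% against 89.1% and 89.6%. The deleted in-frame stretch was thus the minor form in both lines and less frequent in MBT2 at these 5 sites. Each of the 5 lost its call in 1 to 4 of the 8 alternatives. Without the first MBT2 library this held for S100pbp, Zswim8 and Chst14, without the second for Retreg2, without the first LM8 library for Zswim8, Chst14 and Retreg2, and without the second for S100pbp. Counting fragments ended the calls of Med12, Chst14 and Retreg2, and tagged reads alone those of S100pbp, Chst14 and Retreg2. With tagged reads the Zswim8 difference turned to -2.65 points (adjusted p = 1, exact test).

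Splicing factors and their kinases held 11 members in 10 of the 67 listed genes. The short form of Srsf5 was called higher in MBT2 and Hnrnpa2b1 in LM8, as given above, and the other 9 members were not called. Of all shared variants 7.3% were called, and the counts of calls in this and the following lists were not tested against that share. The list's median share was 19.6% in MBT2 and 19.03% in LM8, with a median difference of 0.55 points. Clk1, a kinase gene that acts on splicing factors, had 13.5% and 16.05% in MBT2 and 23.1% and 7.09% in LM8, so its libraries overlapped. Clk3 had 26.1% and 27.4% against 24.8% and 17.4%, and neither was called. Acin1, a splicing-linked protein gene, had 90% and 87.3% against 90.04% and 86.0%. Another deletion, of 99 bases, overlaps the Acin1 member in the MBT2 list with 274 alternative and 29 reference reads, so this share is no measure of retention. Among genes of nonsense-mediated decay and the exon junction complex, 18 in all, none held a member.

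Ribosomal protein genes held 6 members, of which 3 were called, 1 higher in MBT2 and 2 in LM8. Among the 186 members with the most reads 23.1% were called, and over all shared variants 7.3%. With 6 members, some of them deep, the count cannot be read as a trait of these genes. In Rpl10a the deletion of 93 bases had 57.6% and 61.6% in MBT2 and 72.5% and 77.3% in LM8, over 2046 and 1838 reads (-15.35 points, Fisher's exact test, adjusted p = 6.18e-22), and held in all 8 alternatives. With tagged reads alone the level of this deletion was lower, 36.4% in MBT2 and 55.2% in LM8. It lies in the 3′ UTR of the matched transcript and inside an exon of 5 others, and it is listed under Gm49889. The coding Rpl10a intron of 81 bases had 11.8% and 12.3% against 10.4% and 13.0% and was not called. Rpl41 had a mostly kept 5′ UTR intron with 90.8% and 91.6% against 95.7% and 94.0% (-3.69 points, adjusted p = 0.0128, exact test). It lost its call without the first library of either line and with tagged reads alone. Rpl31 had a deletion of 186 bases with intron ends only at 95.1% and 91.04% against 88.0% and 82.5% (7.77 points, adjusted p = 0.0261, exact test). Its call was lost without the first MBT2 or the second LM8 library. Tagged reads turned its difference to -2.29 points, at shares of 32% in MBT2 and 34.3% in LM8. By that count the deletion was thus not mostly kept. Rpl10 had a share of 11.6% in MBT2 and 11.99% in LM8, and Rpl24 had 26.9% and 22.6%, without a call.

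Chromatin regulators had 19 members in 12 genes and no call (0 of 19), with a median share of 14.3% in MBT2 and 9.43% in LM8. The 4 members of Kmt2b, a histone H3K4 methyltransferase gene, had MBT2 shares of 9.71% to 18.02% and LM8 shares of 7.97% to 9.43%, each higher in MBT2. DNA repair genes had 11 members in 3 genes, 0 called, 7 of them in the helicase gene Recql4. Those of Recql4 ran from 10.3% to 26.7% in MBT2 and from 8.70% to 25.2% in LM8, apart from a deletion of 124 bases with 96.6% and 97.5% that spans the annotated intron of 78 bases, whose spliced reads can count as reference reads there. The growth signalling kinase gene Araf was the 1 cancer driver gene of 55 with members. Its intron of 96 bases had 20.5% and 16.2% in MBT2 and 6.09% and 10.2% in LM8 (10.2 points, adjusted p = 0.0479, exact test), beside an overlapping deletion of 88 bases with 7 alternative reads in LM8, and kept the call in 2 of the 8 alternatives, with fragments and without the second LM8 library. The replicate block ended it (adjusted p = 0.0516, Cochran-Mantel-Haenszel test in place of the exact test). The Araf intron of 89 bases had 9.52% and 14.8% against 11.6% and 11.8%.

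In the list of osteoblast and extracellular matrix genes 2 had a member. Serpinh1, the collagen chaperone gene, had a mostly kept 5′ UTR intron with 93.5% and 93.1% in MBT2 and 86.2% and 87.7% in LM8, over 1057 and 1103 reads. Its difference of 6.34 points (Fisher's exact test, adjusted p = 4.00e-05) held in all 8 alternatives. P3h3, a collagen prolyl hydroxylase gene, had 20.8% and 19.4% against 14.8% and 18.8% and was not called. Lysosomal and vacuolar ATPase genes had 9 members, aminoacyl-tRNA synthetase genes 6 and proteasome genes 1, with 0 calls in each list. The 41 epithelial and urothelial genes and the 24 markers of other cell types held none. Expression levels were not analysed here, so the identity of the lines was not checked against marker genes.

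In genes with several members the signs of the differences were often mixed. The members lay in 566 genes, 441 with 1 member, 90 with 2 and 35 with 3 or more. In the 90 genes with 2 members, both were higher in MBT2 in 42, both in LM8 in 11, and 37 were opposite. These counts, and those of the 35 genes below, were not tested against the lean of all members, 468 of 745 higher in MBT2. The differences of the 2 members had a Pearson correlation of 0.14 over these genes, which share libraries. Members that were not called had a median difference of 2.87 points between the summed libraries of the lines, without regard to sign. Between duplicates it was 3.19 in MBT2 and 3.33 in LM8, over all members and from single libraries with fewer reads. These values are thus not on one scale. Spread between libraries can hide joint change in a gene, so its absence is not shown. Of the genes with more than 1 called member, Aup1, Hirip3 and Ptov1 had both higher in MBT2, and Fastk had opposite ones. Among the 35 genes, 9 had every member higher in MBT2, such as Cenpt, a kinetochore protein gene, with 8.93% to 17.4% in MBT2 and 5.17% to 14.7% in LM8 at 4 introns, and 2 had every member higher in LM8. The 6 members of Neurl4 split into 3 and 3. By position among mostly removed introns, first introns (43) had median shares of 14.9% in MBT2 and 11.3% in LM8, last introns (74) 15.7% and 11.6%, and those between (485) 13.0% and 10.9%, with single introns of a transcript counted as first and as last. Calls numbered 4, 9 and 42.

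None of the members with other ends was called, 10 with GC-AG ends, 1 with AT-AC ends and 8 without intron ends. Over all shared variants 7.3% were called, and so few members cannot show whether their share of calls differs from that. Nop2, a ribosomal RNA methyltransferase gene, held the AT-AC intron, a rare class that is mostly removed by the minor spliceosome. Its share was 17.3% and 18.9% in MBT2 and 18.3% and 21% in LM8, over 935 and 443 reads, a difference of -1.46 points whose libraries overlapped. The deletions of Hcfc1, a chromatin cofactor gene, and Usp45, a deubiquitinase gene, were placed with GC-AG ends and were mostly kept. At Hcfc1 these ends lie on the plus strand, while the reads with the deletion ran on the minus strand. It is 1 of the 2 deletions with intron ends only where the strands differ. Its GC-AG ends are thus not those of an intron on the strand of its reads. Hcfc1 had 97.2% and 98.0% against 98.6% and 97.8%, and Usp45 had 95.9% and 96.1% against 98.0% and 95.7%, without a call.

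**Figure D4:**
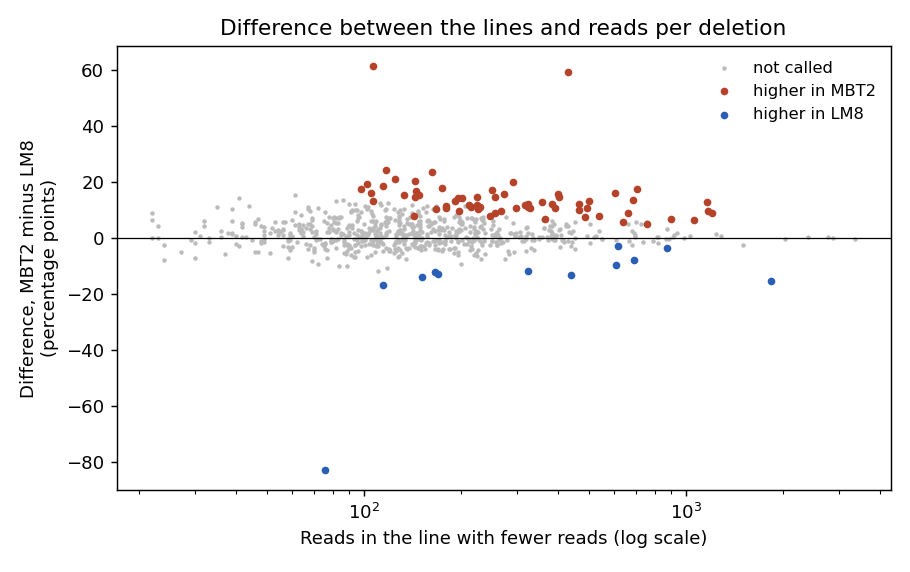
Difference of the reference-read share, MBT2 minus LM8 (y axis, percentage points), against the reads in the line with fewer reads (x axis, log scale) for the 745 members, coloured as not called, called higher in MBT2 or called higher in LM8. Calls become more frequent to the right: 1 of 187 members with 22 to 93 reads and 43 of 186 with 231 or more were called, and smaller differences were called at the deepest sites.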

How the data were processed

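The deposited lists hold variants called per line from both libraries together with Mutect 2.2 without a matched normal, filtered, and annotated with SnpEff 5.1d and its GRCm39 database 105, per the file headers. STAR 2.7.9a, cutadapt 1.9.1 and GATK 4.3.0 are named in the submitters' processing notes. The sources used here do not say how reads that span introns were treated. Read counts per allele in each library were taken as deposited by the authors, with no normalization. Depth was 93025 to 107546 reads at the members per library, and reads are not independent molecules.

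Deletions were shifted by at most 12 bases to intron ends and matched by length and sequence to GENCODE M21 introns of the listed gene or of genes within 10 kb. That annotation is of another build, so its coordinates are not given. Shares were compared by Fisher's exact test on summed reads (scipy 1.17.1, two-sided), adjusted over all 1261 shared variants, after tests on simulated data. Named members were the 10 largest called differences in each direction, the 10 genes with most members, the highest shares, the deepest, the shortest and longest, those with other ends and up to 4 called per gene list. The largest differences were taken among called members with at least 20 reads in each line. Both libraries of one line also had to lie beyond both of the other, which held at every called member. Alternatives were a replicate block, a quasi-binomial model, left-out libraries, read minimums, other definitions of the deletions and, chosen after seeing the data, fragments, tagged reads and leaving out overlapped members. The members, lists and rules were chosen with earlier results of these data known. The numbers in the titles are not stated to pair libraries.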

Additional observations from a re-analysis of the deposited data

How the results depend on the processing

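The replicate block, pairing libraries by the number in their titles, gave 71 called members, 60 higher in MBT2 and 11 in LM8, and the deviations of same-numbered libraries had a correlation of -0.057, so the numbers share only a number. The quasi-binomial model gave 72. Leaving out a library gave 44 to 64 calls, 37 to 55 higher in MBT2 and 6 to 9 in LM8 and median shares of 15.3% to 16.2% in MBT2 and 12.4% to 13.6% in LM8. The median MBT2 share was 16.25% at 50 or more reads and 14.5% for annotated introns alone. Of alternatives chosen after seeing the data, fragments gave medians of 18.2% and 14.6%. Tagged reads gave 31 calls, 26 and 5, with medians of 9.87% and 8.14%. Among differences past the threshold in the main test or the alternative, the sign turned for Rpl31 (-2.29 points) and Zswim8 (-2.65) with tagged reads and for Jdp2 (-2.0) with fragments, the cause not being tested. Of 928 values of 116 named members under 8 settings, 854 kept their side of the threshold (91 of these, at 51 members called in neither fit, changed sign), 67 fell short of it where the main test had called the member, and 4 passed it where it had not. Depth limits the calls: sites with few reads gave almost none.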
